A study of Mus musculus with 2 samples.

Results

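Macrophage identity genes of spleen were followed on 2 arrays of mouse antigen-presenting cells (APCs), 1 array per condition. The set consists of 9 genes: Csf1r, Adgre1, Mertk, Cd14, Lyz2, Spic, Cd5l, Vsig4 and Ly6c2. Its members are the probe sets that the array's annotation assigns to one of these symbols alone. The search found 11 probe sets of 8 genes, among 34945 probe sets of 18193 genes in all. The only probe set of Ly6c2 is also assigned to a second gene, so Ly6c2 has no value of its own here. Of the 8 genes, 7 were measured, which means a signal above the floor of 10.3 on at least 1 array. The floor is the 40th percentile of signal over both arrays, and lower signals were raised to it before ratios were taken. Vsig4 lay below it on both arrays.

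The P25-stimulated APCs were cultured with P25, a mycobacterial peptide antigen, and the non-stimulated APCs with medium. Both cultures ran overnight and held CD4+ T cells with a transgenic receptor for P25 (P25 TCR), so the T cells were in both conditions and the peptide only in the stimulated one. All mice that gave APCs were wild-type C57BL/6 females of 10 weeks. The APCs were enriched from the culture, and RNA of 3 independent experiments was mixed into 1 sample per condition. That mixing limits both groups as models, because no spread between experiments can be seen and no p-value can be given. All ratios are P25-stimulated over non-stimulated. A gene was counted as different at 2-fold, and a gene with several probe sets was represented by its brightest one.

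Macrophages are phagocytes whose survival depends on the receptor for colony-stimulating factor 1 (Csf1r), and the surface protein F4/80, encoded by Adgre1, is their classical marker in the mouse. In the spleen, red pulp macrophages clear ageing red blood cells, recycle their iron and depend on the transcription factor Spi-C. Splenic macrophages also make CD5L, a secreted protein of the scavenger receptor family, and MerTK, a receptor for dying cells. Monocytes, their blood-borne relatives, share CD14 and lysozyme M with them.

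Of the 7 measured macrophage identity genes, 6 were at least 2-fold lower with P25, and none was at least 2-fold higher. The 6 were Mertk, Csf1r, Spic, Cd5l, Lyz2 and Adgre1, and the gene within 2-fold was Cd14. Among all 12897 measured genes, 7.22% were at least 2-fold lower and 9.43% at least 2-fold higher. Bringing both arrays to one median turned these shares into 5.06% and 12.4%, and left 5 members lower and none higher. At a threshold of 1.5-fold the member counts were again 6 and 0, where 18.3% of all genes were lower and 20.9% higher. The median log2 ratio of the 7 members was -1.43, against 0.02 over all measured genes. Mertk passed the floor only on the non-stimulated array. Without it, 5 of 6 members were at least 2-fold lower, where 7.46% of all 10917 genes above the floor on both arrays were, and the median was -1.31, against 0.01. In bulk RNA, fewer macrophages and less of each transcript per macrophage cannot be told apart.

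Probe sets of one gene disagreed, with an SD of 0.58 for the difference of their log2 ratios over 5293 genes. Compared were the brightest and second-brightest probe sets of a gene among those above the floor on both arrays. Ratios that are bounds, such as that of Mertk, are not covered by it. The SD was 0.68 for pairs whose dimmer probe set averaged under 100, and 0.46 for brighter pairs. The ratio of 3′ to 5′ probe sets of Gapdh, a sign of RNA integrity, was 0.733 on the P25-stimulated array and 0.791 on the non-stimulated array. For beta-actin the same ratio was 1.23 with P25 and 1.26 without. The part of RNA integrity in the member ratios was not tested.

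**Figure D1:**
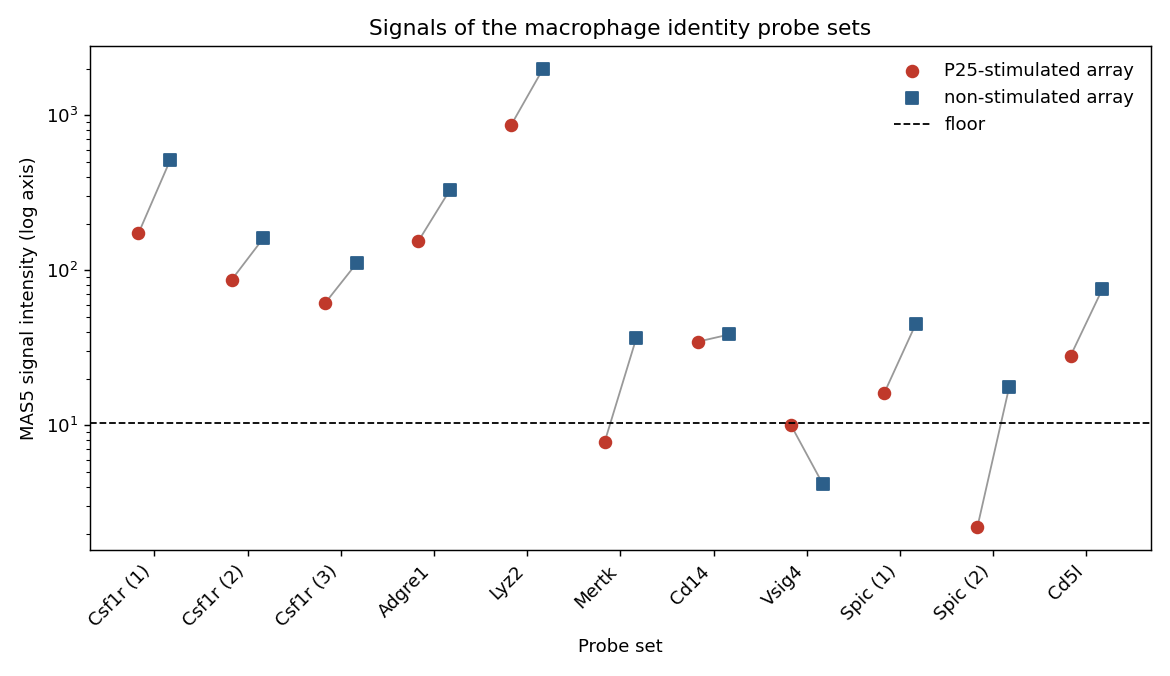
MAS5 signal (log axis) of the 11 probe sets of 8 macrophage identity genes on the P25-stimulated array (circles) and the non-stimulated array (squares), 1 array each, with the floor of 10.3 dashed. Numbers in brackets separate probe sets of one gene. The circle lies below the square in every probe set except that of Vsig4, whose points are both under the floor.

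Among the receptors, Csf1r is the one that binds CSF1 and IL-34 and marks the mononuclear phagocyte lineage. Its brightest probe set had a signal of 173 on the P25-stimulated array, against 514 on the non-stimulated array. That is 2.97-fold lower, a log2 ratio of -1.57, and 218 of the 12897 measured genes had a ratio this low or lower. A second probe set gave 86.9 with P25 and 161 without, a log2 ratio of -0.89. The third gave 61.2 with P25 and 111 without, a log2 ratio of -0.86. All 3 probe sets were lower with P25, but only the brightest passed 2-fold, so the size of the difference depended on the probe set.

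Adgre1 encodes F4/80, an adhesion-type receptor of the cell surface. Its 1 probe set had 153 on the P25-stimulated array and 329 on the non-stimulated array, 2.15-fold lower. With a log2 ratio of -1.10, it lay closest to the 2-fold line among the 6 genes. It no longer passed 2-fold when both arrays were brought to one median (-0.96) or to one spike-in signal (-0.95).

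Mertk encodes a TAM-family receptor tyrosine kinase that binds apoptotic cells through bridging proteins. Its probe set had a signal of 7.77 with P25, under the floor, and 36.4 without. The ratio is therefore a bound, at least 3.54-fold lower (log2 ratio -1.82). In all, 103 measured genes had a ratio this low or lower. The other genes of the TAM system were within 2-fold or at the floor. Axl, a second receptor of the family, had 62.8 with P25 and 34.1 without, a log2 ratio of 0.88, and Gas6, a bridging ligand, stood at 6.77 with P25 and 10.5 without. Tyro3 and Pros1 were at the floor on both arrays.

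Cd14, the co-receptor that hands lipopolysaccharide to TLR4, was the exception among the measured genes. Its signals were 34.6 with P25 and 38.5 without, a log2 ratio of -0.16, and 39.2% of measured genes had a lower ratio. The probe set was dim, and the ratio came to -0.01 when the arrays were brought to one median and to -0.24 with one trimmed mean. The rest of the lipopolysaccharide recognition genes were within 2-fold too, in 6 of 6 measured. Their median log2 ratio was -0.16. Tlr4 had the highest log2 ratio at 0.59 and Ly96, which encodes the MD-2 subunit of the receptor, the lowest at -0.38. Trem1, a receptor that amplifies such signals in myeloid cells, had a log2 ratio of -0.16. Lbp, the binding protein for lipopolysaccharide, had one of -0.19 with P25 at the floor, and 0.16 on its second probe set. The first ratio is a bound. With the floor lowered to the 20th percentile, Lbp came to -1.56, and 1 gene of the list was then at least 2-fold lower. Cd180 and Ly86, which encode a related receptor complex best known from B cells, had log2 ratios of -0.15 and -0.06.

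Vsig4 encodes CRIg, a complement receptor of tissue-resident macrophages such as Kupffer cells of the liver. It had 10.0 with P25 and 4.19 without, both under the floor, so no ratio is given. It would read 1.26 on the log2 scale with the floor lowered to the 20th percentile. Its signals were too dim to place it with the other genes.

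Lyz2, which encodes lysozyme M of macrophages, monocytes and neutrophils, had 871 on the P25-stimulated array and 1996 on the non-stimulated array. It was 2.29-fold lower, a log2 ratio of -1.20. The neighbouring gene Lyz1 is nearly identical in sequence, so the arrays may not separate them. The probe sets assigned to Lyz1 gave 2037 with P25 and 4166 without (log2 ratio -1.03), and 1876 with P25 and 2506 without (-0.42). The remaining one was at the floor on both arrays. Markers of neutrophils, which also make lysozyme M, were lower on the same arrays (median log2 ratio -1.10). The part of neutrophils in the Lyz2 ratio was not tested.

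Spic encodes the transcription factor Spi-C, an ETS-family protein related to PU.1, that red pulp macrophages depend on. Its brighter probe set had 16.1 with P25 and 45.2 without, 2.80-fold lower (log2 ratio -1.49). The other had 2.21 with P25, under the floor, and 17.5 without, at least 1.70-fold lower. Both probe sets point the same way, but both were dim. Both also carry the _x_ or _s_ suffix, the array's mark for probe sets that may match other transcripts. Spic had no value when such probe sets were left out. With the floor raised to the 60th percentile (38.6), the log2 ratio of its brighter probe set came to -0.23.

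Cd5l encodes the secreted protein CD5L, known as AIM, which liver X receptors induce in macrophages. Its probe set had 28.1 on the P25-stimulated array and 75.5 on the non-stimulated array. That is 2.69-fold lower, a log2 ratio of -1.43, which became -0.97 with the floor at the 60th percentile.

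**Figure D2:**
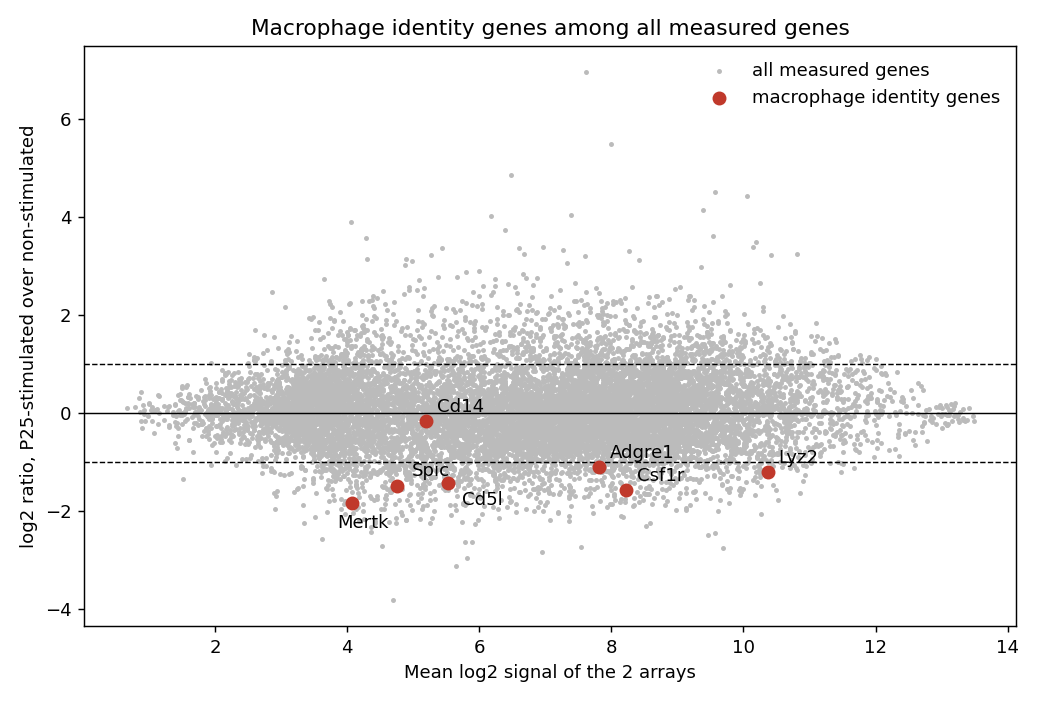
Log2 ratio of P25-stimulated over non-stimulated signal (y) against the mean log2 signal of both arrays (x) for the 12897 measured genes (grey), with the 7 measured macrophage identity genes in colour. Dashed lines mark 2-fold. Of the 7, 6 lie below the lower dashed line, across the range from dim (Mertk) to bright (Lyz2), and Cd14 lies near 0.

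The lower members were spread over the range of signal. Of measured genes with a geometric mean signal under 100, 8.34% were at least 2-fold lower, and 6.25% of those with 100 or more. Mertk, Spic and Cd5l belong to the dimmer class and Csf1r, Adgre1 and Lyz2 to the brighter one.

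The promoters of 4 of the 6 lower members, Lyz2, Spic, Cd5l and Mertk, are shown because these genes were low together and the PU.1 family of ETS factors is a known regulator of macrophage genes. The windows run from 250 bases before to 50 bases after the start site, 5′ to 3′ on the coding strand, from RefSeq on GRCm38.p6. The genes to search were picked by hand and included Vsig4, which had no ratio. Of the other lower members, Csf1r was not searched and no window was found for Adgre1. The windows therefore do not stand for the lower members as a set. A window was used for 5 of the 8 genes, since Cd14 was not searched either. Capitals mark the PU box GAGGAA and the ETS 6-mer AGGAAG, searched on both strands, so that the reverse reads TTCCTC and CTTCCT.
Lyz2 (chr10:117282223-117282522, minus strand) comes first, then Spic (chr10:88682974-88683273, minus strand), Cd5l (chr3:87357631-87357930, plus strand) and Mertk (chr2:128698665-128698964, plus strand).
Lyz2: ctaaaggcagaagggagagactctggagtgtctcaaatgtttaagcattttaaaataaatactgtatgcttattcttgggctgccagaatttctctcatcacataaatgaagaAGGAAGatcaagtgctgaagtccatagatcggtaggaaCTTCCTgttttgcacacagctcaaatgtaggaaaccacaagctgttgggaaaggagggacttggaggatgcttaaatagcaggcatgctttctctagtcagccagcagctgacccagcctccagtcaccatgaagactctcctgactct
Spic: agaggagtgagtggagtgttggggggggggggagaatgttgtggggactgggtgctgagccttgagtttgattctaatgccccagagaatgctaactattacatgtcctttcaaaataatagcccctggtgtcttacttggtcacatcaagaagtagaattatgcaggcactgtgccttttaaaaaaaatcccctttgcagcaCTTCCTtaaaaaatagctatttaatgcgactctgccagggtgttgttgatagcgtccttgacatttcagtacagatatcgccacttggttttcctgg
Cd5l: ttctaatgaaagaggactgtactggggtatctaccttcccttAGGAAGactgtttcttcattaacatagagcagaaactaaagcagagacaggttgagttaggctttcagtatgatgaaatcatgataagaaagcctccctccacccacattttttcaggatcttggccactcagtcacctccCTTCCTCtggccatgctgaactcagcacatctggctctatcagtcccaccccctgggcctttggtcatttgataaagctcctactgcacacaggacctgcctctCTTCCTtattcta
Mertk: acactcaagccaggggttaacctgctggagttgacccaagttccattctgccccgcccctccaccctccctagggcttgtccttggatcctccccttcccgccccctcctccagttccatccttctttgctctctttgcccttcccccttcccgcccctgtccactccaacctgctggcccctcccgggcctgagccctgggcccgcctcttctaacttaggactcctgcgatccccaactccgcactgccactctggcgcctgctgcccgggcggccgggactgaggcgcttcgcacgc

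The Lyz2 window held the ETS 6-mer 2 times, starting at -137 and -99 from the start site. The Spic window held it 1 time, at -47. The Cd5l window held it 3 times, at -208, -67 and 38, and the one at -67 overlaps a PU box at -66. The Mertk window held neither. The Vsig4 window, not printed, held 2 PU boxes. Over all 32851 RefSeq promoter windows of this length, 28.3% held a PU box and 35.4% the ETS 6-mer. The interferon-gamma activated site TTCNNNGAA was in none of the 5 windows and in 8.30% of all windows. These letter matches occur in a large share of promoters and do not mark a bound site.

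Genes that work beside the members were taken from lists made for each role. For the growth-factor axis of Csf1r, 5 of 5 genes were measured, 1 lower and 1 higher at 2-fold. Csf1, its ligand, had 128 with P25 and 27.6 without, 4.66-fold higher, with log2 ratios of 0.21 to 2.79 on 3 other probe sets. Il34, the other ligand, was near the floor, with a log2 ratio of 0.34. Csf3r, the receptor for G-CSF on neutrophils, had 18.4 with P25 and 68.5 without, 3.72-fold lower. The GM-CSF receptor chains Csf2ra and Csf2rb had log2 ratios of -0.75 and 0.16, within 2-fold. Receptor and ligand of the CSF1 axis thus differed in opposite directions between the arrays.

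The genes listed for iron and haem handling in red pulp macrophages, the repressor Bach1 included, had log2 ratios under 0 in 7 of 7 measured. Blvrb came to 0.05 when the arrays were brought to one median or one spike-in level. Of the 7 genes, 3 passed 2-fold downward and none upward, and the median log2 ratio was -0.99. Slc40a1, the iron exporter ferroportin, had 14.0 with P25 and 63.5 without, 4.54-fold lower, and -1.57 was the log2 ratio of its second probe set. Its log2 ratio came to -0.72 with the floor at the 60th percentile. Hmox1, which breaks down haem, had 37.0 with P25 and 83.7 without, 2.27-fold lower. Bach1, a haem-sensitive repressor of Hmox1, had 219 with P25 and 493 without, 2.25-fold lower, and a log2 ratio of -0.53 from another probe set. Fth1, the ferritin heavy chain, and Blvrb, a biliverdin reductase, had log2 ratios of -0.37 and -0.10. Cd163, the receptor for haemoglobin-haptoglobin complexes, was at the floor on both arrays.

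The lipid and scavenging genes around Cd5l went both ways. Of 8 measured, 4 passed 2-fold downward and 1 upward. Their median log2 ratio was -1.03, and -0.04 without those at the floor on 1 array. Nr1h3, which encodes the liver X receptor LXR-alpha, had 1.76 with P25 and 32.9 without, at least 3.20-fold lower. Apoe, a lipid carrier induced by that receptor, had 606 with P25 and 2502 without, 4.13-fold lower. Abca1, a cholesterol exporter under the same control, was 2.89-fold lower, and Mrc1, the mannose receptor, at least 2.50-fold. Msr1, scavenger receptor A, had 27.4 with P25 and 12.2 without, 2.25-fold higher, and had a log2 ratio of 0.85 when its probe sets were summarised by their median. Cd36, a fatty acid and scavenger receptor, had a log2 ratio of 0.68.

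Lysosomal genes were lower in part. Of 9 measured, 4 passed 2-fold downward and none upward, and the median log2 ratio was -0.91. The lowest were Cd68, a lysosomal membrane protein of macrophages, at 106 with P25 and 258 without (2.44-fold lower), and the protease gene Ctsd at 282 with P25 and 624 without (2.21-fold lower). The protease gene Ctsl, at 2.21-fold lower, and Lyz1, at 2.05-fold lower, completed the 4. Lamp1 and Ctss, at log2 ratios of 0.05 and 0.04, were the highest. Bringing the arrays to one spike-in level reduced the count of lower genes to 1.

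Complement genes were split. Of 5 measured genes from the list of complement and its receptors, 2 passed 2-fold in each direction. C1qb, a chain of C1q made by macrophages, had 7.92 with P25 and 38.9 without, at least 3.78-fold lower, but its log2 ratio came to -0.01 with the floor at the 60th percentile. Itgam, which encodes CD11b of complement receptor 3, had 11.4 with P25 and 36.5 without, 3.21-fold lower, and Itgax, which encodes CD11c, had a log2 ratio of -0.87. Cfb, factor B of the alternative pathway, had 91.9 with P25 and 9.61 without, at least 8.93-fold higher. Its log2 ratio came to 1.25 with the floor at the 60th percentile. Cfp, properdin, was 3.07-fold higher by its brightest probe set, while the other gave a log2 ratio of -0.07.

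Transcription factors of the myeloid lineage were lower more often than higher, 4 against 2 of 12 measured, with a median log2 ratio of -0.75. Among the 9 above the floor on both arrays, 3 were lower and 1 higher. Cebpa, which directs myeloid progenitors, had 11.5 with P25 and 39.4 without, 3.42-fold lower, and -0.03 on the log2 scale with the floor at the 60th percentile. Nr1h3 counts among the 4, with Id3, an inhibitor of E proteins (3.07-fold lower), and Runx1. The brightest probe set of Runx1 was 2.21-fold lower, and its 5 others ran from -1.38 to 0.63 in log2 ratio. Tfec had 25.2 with P25 and 9.74 without, at least 2.45-fold higher, but a log2 ratio of 0.68 with a pseudocount of 16 and no floor. Rxra, the partner of LXR, had 76.6 with P25 and 33.8 without, 2.27-fold higher. Another Rxra probe set gave a log2 ratio of 0.38.

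The Ly6 family gave no value for Ly6c2 itself, but 4 relatives were measured. Ly6i had 152 with P25 and 20.5 without, 7.38-fold higher. Ly6k was 2.22-fold higher by its brightest probe set, while the other gave a log2 ratio of -0.31. Ly6e had a log2 ratio of -0.03 on its brightest probe set and -0.85 on the other, and Ly6d had one of -0.01. Of 7 measured monocyte genes, 4 passed 2-fold downward and none upward (median log2 ratio -1.13), and 0 did with the floor at the 60th percentile. Of the 4, F13a1, Ccr2 and Fcgr4 passed the floor only on the non-stimulated array. Of the 4 monocyte genes that cleared the floor with and without P25, 1 was at least 2-fold lower, Cx3cr1, and the median log2 ratio was -0.44. F13a1, a transglutaminase of monocytes, had 2.14 with P25 and 48.7 without, at least 4.73-fold lower. Ccr2, the receptor that guides classical monocytes, had 6.89 with P25 and 42.1 without, at least 4.09-fold lower, with -0.13 and -1.26 on other probe sets. Fcgr4, an Fc receptor, was at least 2.61-fold lower, and Cx3cr1, the fractalkine receptor, 2.18-fold lower with -0.04 on its second probe set. Nr4a1, a nuclear receptor of non-classical monocytes, had a log2 ratio of -0.26. Fcgr1, an interferon-inducible Fc receptor, had one of 0.49 on its brightest probe set and -0.42 on the other.

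**Figure D3:**
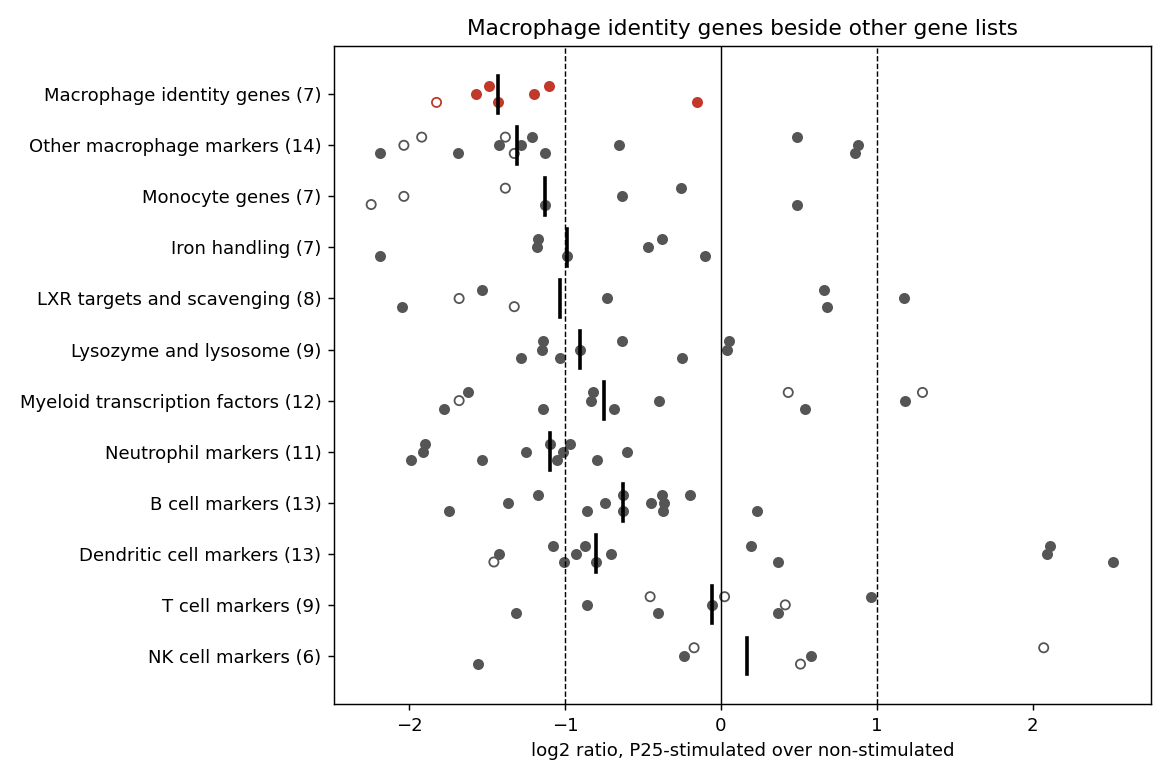
Log2 ratios of P25-stimulated over non-stimulated signal (x) for the measured genes of 12 lists, with the number measured in brackets. Filled points were above the floor on both arrays, open points are bounds, bars are medians and dashed lines mark 2-fold. The macrophage identity genes (median -1.43) and other macrophage markers (median -1.30) lie at the top, and the neutrophil markers (median -1.10) below.

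The set was compared with 20 other macrophage markers, of which 14 were measured. Of these, 10 passed 2-fold downward and none upward, and their median log2 ratio was -1.30. The share lower was 71.4%, against 72.7% of measured neutrophil markers and 7.22% of all measured genes. Many of the markers were also counted in the lists above. The comparison therefore does not check the label of the set. C1qb, Mrc1, Fcgr4 and Ccr2 passed the floor only on the non-stimulated array. Among the 10 markers above the floor on both arrays, 6 were lower and the median was -1.17. With the floor at the 60th percentile the count of lower ones was 2. Mpeg1, a pore-forming protein of macrophages, had a log2 ratio of 0.86 and, like Axl, was at least 2-fold higher when the arrays were brought to one median. Siglec1, Timd4, C1qa, C1qc, Cd163 and Marco were at the floor on both arrays. Several defining markers of resident and marginal zone macrophages thus lay under the floor without P25 as well as with it. The summed signal of the 14 was 2439 with P25 and 2003 without, of which Mpeg1 made up 2035 with P25 and 1121 without. For the 7 measured members the sums were 1284 with P25 and 3035 without.

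Markers of other cells of the spleen differed on the same arrays. All 11 measured neutrophil markers were lower with P25, 8 of them at least 2-fold, with a median log2 ratio of -1.10 and summed signals of 7306 with P25 and 13596 without. Mpo and Mmp8, granule enzymes, were lowest at 3.96-fold and 3.75-fold lower, and S100a8 and Mmp9 were the highest at 1.52-fold and 1.73-fold lower. The Mmp9 value is from its brightest probe set, and the other gave a log2 ratio of -1.67. With the arrays brought to one median, 5 of the 11 passed 2-fold. Of 13 measured B cell markers, 3 passed 2-fold downward and none upward. They were Vpreb3 (3.35-fold lower), Blk (2.57-fold) and Ebf1 (2.25-fold). Ms4a1, which encodes CD20, and Fcer2a, which encodes CD23, were the highest, with log2 ratios of 0.23 and -0.20. Over all 13 the median log2 ratio was -0.63 and the summed signals were 28107 with P25 and 39132 without. Dendritic cell markers, 13 of them measured, passed 2-fold downward in 4 and upward in 3, with a median log2 ratio of -0.80 and summed signals of 1943 with P25 and 2404 without. Zbtb46, Ly75 and Bst2 were 5.72-fold, 4.32-fold and 4.26-fold higher. The log2 ratio of Zbtb46 came to 1.05 with the floor at the 60th percentile. Cadm1 was at least 2.74-fold lower, Sirpa, also a macrophage gene, 2.69-fold, Siglech 2.11-fold and Dpp4 2.01-fold. By the median over their probe sets, Cadm1 had a log2 ratio of -0.85 and Sirpa one of -0.76, both short of 2-fold. With the arrays brought to one median, 2 of these passed 2-fold downward.

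Of 12 T cell markers on the array, 9 were measured, 1 at least 2-fold lower and none higher. Cd28, a co-stimulatory receptor, was 2.49-fold lower by its brightest probe set. The other gave -0.61 on the log2 scale. Cd3g, a chain of the T cell receptor complex, had 21.6 with P25 and 11.1 without, 1.95-fold higher, and passed 2-fold when the arrays were brought to one median or one spike-in level. Cd5 and Trat1, both of T cell signalling, had log2 ratios of -0.86 and 0.41, the second with the non-stimulated array at the floor. Over the 9 the median log2 ratio was -0.05, and the summed signals were 171 with P25 and 204 without. Cd3e, Cd3d and Cd4 were at the floor on both arrays. Of 6 measured NK cell markers, Klrd1 was 2.94-fold lower and Gzmb at least 4.20-fold higher. The log2 ratios of Nkg7, Gzma, Klrk1 and Prf1 were 0.57, 0.51, -0.17 and -0.24, and Ncr1 and Eomes were at the floor on both arrays. Of 3 measured erythroid markers, Tfrc, the transferrin receptor that dividing cells also use, was 2.47-fold higher. Epor and Slc4a1 had log2 ratios of -0.40 and 0.02, and the haemoglobin gene Hba-a1 was at the floor on both arrays. Among 6 stromal and endothelial markers, 2 were at least 2-fold lower, Des and Pecam1. Des passed the floor only on the non-stimulated array and gave a log2 ratio of 0.39 on its second probe set. Pecam1, at a log2 ratio of -1.02, came to -0.88 with the arrays brought to one median, which left 1 of the 6 lower. Kdr and Cdh5, receptor and adhesion molecule of endothelium, had log2 ratios of 0.87 and 0.79, Cdh5 with the non-stimulated array at the floor. Kdr passed 2-fold upward with the arrays brought to one median. Col1a2 and Pdpn had log2 ratios of 0.21 and -0.11, and the collagen genes Col1a1 and Col3a1 were at the floor on both arrays. The part of any of these cells in the member ratios was not tested.

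**Figure D4:**
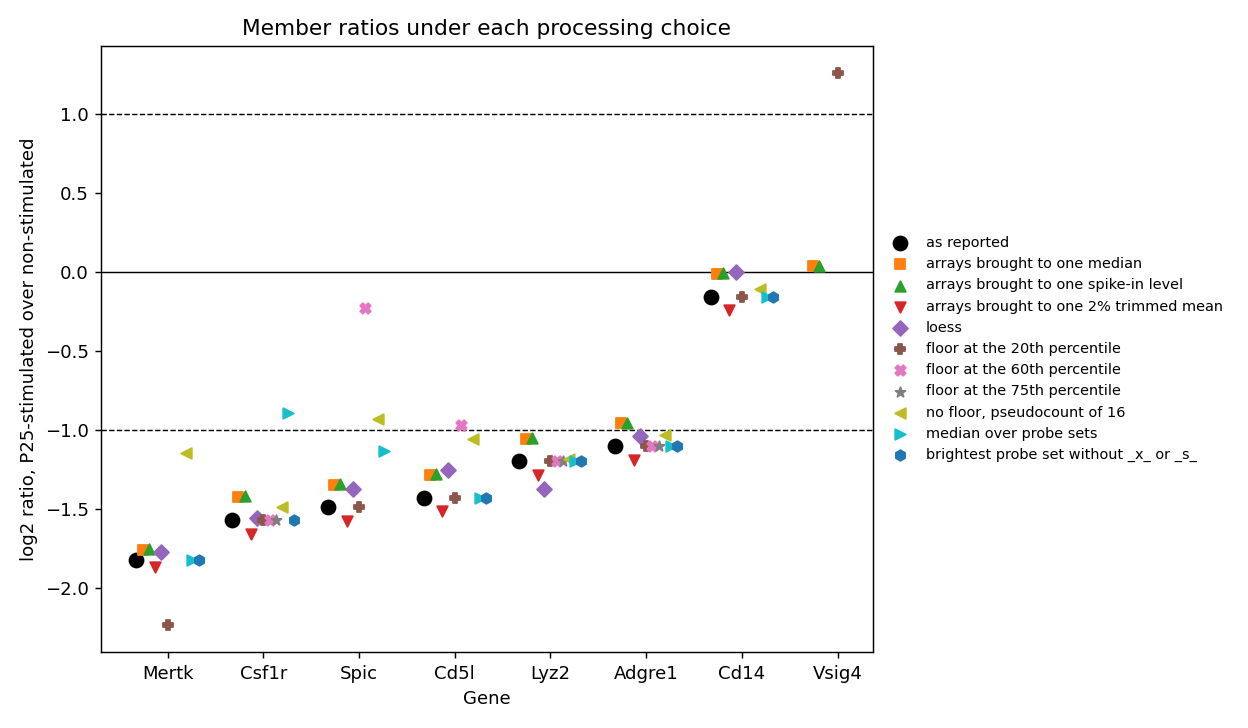
Log2 ratio of P25-stimulated over non-stimulated signal (y) for 8 macrophage identity genes under the reported processing (black circles) and 10 alternatives, with dashed lines at 2-fold. Lyz2 and Mertk stay below the lower line wherever they are measured, and Spic, Cd5l, Csf1r and Adgre1 each cross it under at least 1 choice.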

How the data were processed

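Per the labels' protocols, total RNA was purified on RNeasy columns and 1 µg was labelled with biotin as cRNA. The deposited values are MAS5 signal intensities on a linear scale, made by the authors with MAS5 and GCOS, per the submitters' processing notes, where no versions are given. MAS5 scales each array to a target, which is not given in the sources used here, and corrects for mismatch probes, which makes ratios noisy at low signal. Of 45037 probe sets other than controls, 60.3% on the P25-stimulated array and 59.7% on the non-stimulated array were above the floor, and the medians were 18.0 and 18.4. One array per condition limits the precision, and a batch cannot be told apart from the treatment.

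Probe sets with 1 gene symbol (34945, 932 having several and 9160 none) took their name from the platform annotation, brought up to date through RefSeq (GRCm38.p6) by Entrez number, where 204 did not match. Log2 ratios were taken after signals below the 40th percentile were raised to it, which makes a ratio with 1 array there a bound. Of several probe sets of a gene, the one with the highest mean log2 signal was used, with no test. The members and the 18 other lists were chosen with earlier results of these data known, and 20 of 175 listed genes stand in more than 1 list. Named in the text are all members and, of each list, the 2 highest and 2 lowest measured genes, or all of 6 or fewer. Other genes behind a count of 5 or fewer, and genes at the floor on both arrays that define a cell type, were named after their values were seen. With 2 arrays no other genes were ranked by likeness to the members. Alternatives were 4 other scalings (median, spike-in, 2% trimmed mean, loess), floors at the 20th and 60th percentile, a pseudocount of 16 without floor, 2 other choices of probe set and a threshold of 1.5-fold. A floor at the 75th percentile was added after the data were seen. The calculation was tested on simulated arrays, with changes well past 2-fold in genes well above the floor. The simulated noise was smaller than the disagreement between probe sets. Calls near 2-fold in dim genes were therefore not tested by it. Python 3.11.15, pandas 2.3.3 and statsmodels 0.14.6 were used.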

Additional observations from a re-analysis of the deposited data

How the results depend on the processing

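The count of macrophage identity genes at least 2-fold lower was 6 of 7 measured as reported, and 5 or 6 under the other scalings, the 20th percentile floor, the pseudocount, the other probe set choices and the 1.5-fold threshold. It was 3 of 5 measured with the floor at the 60th percentile and 3 of 3 measured with the floor at the 75th percentile. Of all measured genes, 6.44% were at least 2-fold lower at the 60th percentile floor and 5.13% at the 75th. The share was 11.6% at the 20th percentile floor and 4.47% with the pseudocount. At the 60th percentile Mertk and Cd14 were under the floor on both arrays, and Spic and Cd5l were still measured but short of 2-fold, with log2 ratios of -0.23 and -0.97. At the 75th percentile Spic and Cd5l were under the floor on both arrays too. The count at least 2-fold higher was 0 in all but 1 alternative: with the floor at the 20th percentile it was 1, Vsig4. At that floor 14.7% of all measured genes were at least 2-fold higher. The median log2 ratio of the members ran from -1.51 (one trimmed mean) to -1.05 (pseudocount). Lyz2 ran from -1.37 to -1.05 in 10 alternatives, and Mertk from -2.23 to -1.14 in the 8 that measured it. Csf1r came to -0.89 by the median over its probe sets. Spic came to -0.93 with the pseudocount. It had no value without probe sets of the _x_ or _s_ suffix, where 5 of 6 measured members were at least 2-fold lower. Over all genes the median log2 ratio was 0.15 after median scaling and 0.16 after spike-in scaling. The shares of genes at least 2-fold lower were 5.06% and 4.95% there, and those at least 2-fold higher 12.4% and 12.5%. Of 86 genes named from the other lists, none past 2-fold changed direction under an alternative, in 436 values, of which 374 stayed past 2-fold. Floors and the pseudocount cannot reverse a ratio, and scaling by a constant moves all ratios by the same small amount. The unchanged direction was therefore largely fixed in advance. Single probe sets of some lower genes did point the other way, such as Runx1 (log2 ratio up to 0.63) and Des (0.39). No paired analysis was possible because each condition has 1 array.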
